A study of Mus musculus with 11 samples.

Results

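Interferon-stimulated genes are the genes that cells switch on when an interferon reaches them, and 40 of them, taken from a list of named genes, were followed across 4 groups of mouse marrow cells. Of the 40 genes, 37 had a probe that names them alone, and 33 of those were detected on at least 2 of the 11 arrays and entered the tests. The same steps left 11367 tested genes of 19057 named ones on the whole array. Herc6, Ddx60 and Ifi44 had no such probe. Oas1a and Xaf1 were detected on 0 arrays, and Ifit1 and Iigp1 on 1 array each, so none of these 4 was tested.

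The cells came from the endosteal region of the marrow of C57BL/6 mice and were separated by flow cytometry. Their RNA was hybridised to Illumina MouseWG-6 v2 bead arrays, which give 1 brightness per probe. The 3 fractions had bound a fluorescein-tagged AGE reagent (FITC-AGE+) and are called scavenger endothelial cells in the labels: CD31+ B220+ cells (n = 3), CD31+ B220- cells (n = 3) and CD31- B220- cells (n = 3). The remaining group was haemopoietic stem cells, HSC, gated as LSK CD150+ CD48- (n = 2), where LSK stands for lineage-negative cells with Sca-1 and Kit. For CD31- B220- cells the source name disagrees with the title and cell type, in that it starts with HSC, and the title decided the group. The labels name no treatment, age or sex. They state that RNA of some samples was combined to have enough for labelling, and they do not say that numbered replicates came from separate animals, so the p-values measure the spread between these arrays, which may be technical in part. In sorted populations, fewer cells that express a gene and less of its RNA per cell cannot be told apart. Arrays are named below by group and replicate number.

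Type I interferons bind the receptor pair Ifnar1 and Ifnar2, whose kinases Jak1 and Tyk2 start the signal. It ends with Stat2 and Irf9 in a complex that binds the interferon-stimulated response element in the promoters of target genes. Interferon gamma uses another receptor pair, Ifngr1 and Ifngr2, and acts through promoters that hold the gamma-activated site. In mice, interferons drive resting stem cells into division, and stem cells are known to keep part of the interferon-stimulated genes on without infection.

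RefSeq promoter windows, from 250 bases before to 50 bases after the start site (build GRCm38.p6), were matched by symbol for 30 of the 40 genes. The core of the response element was searched as GAAANNGAAA and, on the other strand, TTTCNNTTTC. It was found in the windows of 15 of the 30 genes (50%), against 1079 of the 27025 genes with windows of the same length (3.99%). The 15 were Stat2, Isg15, Ifih1, Ddx60, Eif2ak2, Oas1a, Oas3, Ifit1, Ifit3, Rsad2, Bst2, Gbp2, Gbp3, Igtp and Irgm1. The gamma-activated core, TTCNNNGAA, which reads alike on both strands, was found for 8 of the 30 genes (26.7%), against 2582 of the 27025 (9.55%). The 2 motifs can overlap, and a match describes letters in the window, not a bound site. The stretches printed here hold the matches, with up to 20 bases on either side, of the genes that have one before the start site and were called in the most comparisons. Oasl2, Lgals3bp, Isg20 and Samd9l, described in detail further on, had no match to the response element core in their windows, which says only that these letters are not there. The stretch of Isg15 lies at chr4:156200855-156200916 on the minus strand, that of Rsad2 at chr12:26456543-26456592 on the minus strand, and that of Gbp2 at chr3:142620584-142620633 on the plus strand. Gbp3 is shown from chr3:142559979-142560034 on the plus strand, Ifit3 from chr19:34583353-34583436 on the plus strand, and Igtp from chr11:58199502-58199551 on the plus strand. Each is written 5′ to 3′ in the direction of transcription, with the bases of the response element core in capitals.
Isg15: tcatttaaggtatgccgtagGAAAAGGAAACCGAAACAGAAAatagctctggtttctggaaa
Rsad2: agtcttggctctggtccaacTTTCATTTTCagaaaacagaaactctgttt
Gbp2: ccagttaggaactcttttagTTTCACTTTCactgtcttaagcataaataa
Gbp3: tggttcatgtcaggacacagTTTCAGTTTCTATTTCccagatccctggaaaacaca
Ifit3: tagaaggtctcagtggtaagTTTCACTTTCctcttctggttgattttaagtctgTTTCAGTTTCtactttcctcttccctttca
Igtp: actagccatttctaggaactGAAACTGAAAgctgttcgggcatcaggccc
Isg15 holds 3 overlapping copies, the first at 78 bases before the start site, and Ifit3 holds 2 separate copies, at 156 and 122 bases before it. Gbp3 holds 2 overlapping copies, at 45 and 39 bases before the start site. Rsad2, Gbp2 and Igtp hold 1 copy each, at 120, 59 and 34 bases before it.

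Each array detected 27 to 32 of the 37 genes. Arrays of 1 group correlated across genes with r between 0.9701 and 0.9882. The HSC arrays were brighter before normalization, with a 75th percentile of 376.8 to 450.5 against 145.9 to 211.6 on the arrays of the fractions, and the sample numbers in their labels stand apart from the unbroken run of the other 9. What those numbers mark is not stated, and any such difference cannot be told apart from cell type. Quantile normalization removes the gap in brightness, whereas scaling the arrays to a common median keeps it. Under the common median the median of all tested genes lay at -1.22, -1.14 and -1.08 (log2) in CD31+ B220+, CD31+ B220- and CD31- B220- cells against HSC, so that differences from HSC are given below under both, as the distance from that median where it matters.

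Endothelial markers were uneven across the fractions. Of 9 endothelial markers, Tek, Tie1, Eng, Emcn and Stab2 were detected on no array of CD31+ B220+ cells, and Cdh5, Tek, Tie1, Emcn, Robo4 and Stab2 on none of CD31- B220- cells, while all 9 were detected on at least 1 array of CD31+ B220- cells. Their summed normalized signal, on the linear scale, was 658 to 1037 in CD31+ B220+, 2023 to 2695 in CD31+ B220-, 2103 to 2146 in CD31- B220- cells and 7031 to 7459 in HSC. Stab1 made up most of the sum in the fractions but not in HSC. It was detected on all 11 arrays and averaged 9.17, 10.65 and 10.61 (log2) in the fractions, in that order, and 9.71 in HSC. Against HSC, 3 of the 9 markers were called higher and 5 lower in CD31+ B220- cells, against 17.5% and 25% of all genes. Markers of blood lineages were present in the fractions. The sum of 7 B lineage markers was 43817 to 44080 in CD31+ B220+, 7334 to 10619 in CD31+ B220- and 545 to 853 in CD31- B220- cells, against 1008 to 1073 in HSC. The sum of 8 macrophage and monocyte markers was 429 to 680, 12519 to 18015 and 8329 to 15109 in the same order of fractions, against 586 to 747 in HSC. The sum of 9 plasmacytoid dendritic cell markers, a cell known for making type I interferon, was 8534 to 9521, 4494 to 6485 and 1847 to 2626 in that order, against 5741 to 5876 in HSC, where Spib and 4 others were not detected. Most of that sum came from Tcf4 and Spib, which B cells also express, in CD31+ B220+ cells, and from Tcf4 and Ptprs in HSC. The median difference of the list between CD31+ B220+ and CD31+ B220- cells was -0.23, against the order of the sums. The sum of 8 neutrophil markers was 1419 to 6610, 56082 to 61940 and 22270 to 57127, against 7173 to 7330 in HSC. Within that list Elane, Mpo and Prtn3 were called higher and Ltf, Camp and Ngp lower in CD31+ B220- than in CD31- B220- cells. The sum of 6 T and NK cell markers was 173 to 267, 2717 to 5098 and 238 to 733, against 477 to 720 in HSC. The part of these cell types in the differences below was not tested.

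Between the fractions, a set of antiviral genes stood highest in CD31- B220- cells and lowest in CD31+ B220+ cells, among them Isg15, Usp18, Rsad2, Ifit3 and Irf7. A smaller set ran the other way, with Samd9l, Irf1, Parp14 and Trim25 highest of the fractions in CD31+ B220+ cells. Of the 33 tested genes, 9 had their highest fraction mean in CD31+ B220+, 4 in CD31+ B220- and 20 in CD31- B220- cells. Over all 11367 genes the shares were 39.4%, 29.8% and 30.9% in that order. Under the common median the counts were 7, 5 and 21 of 33.

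**Figure D1:**
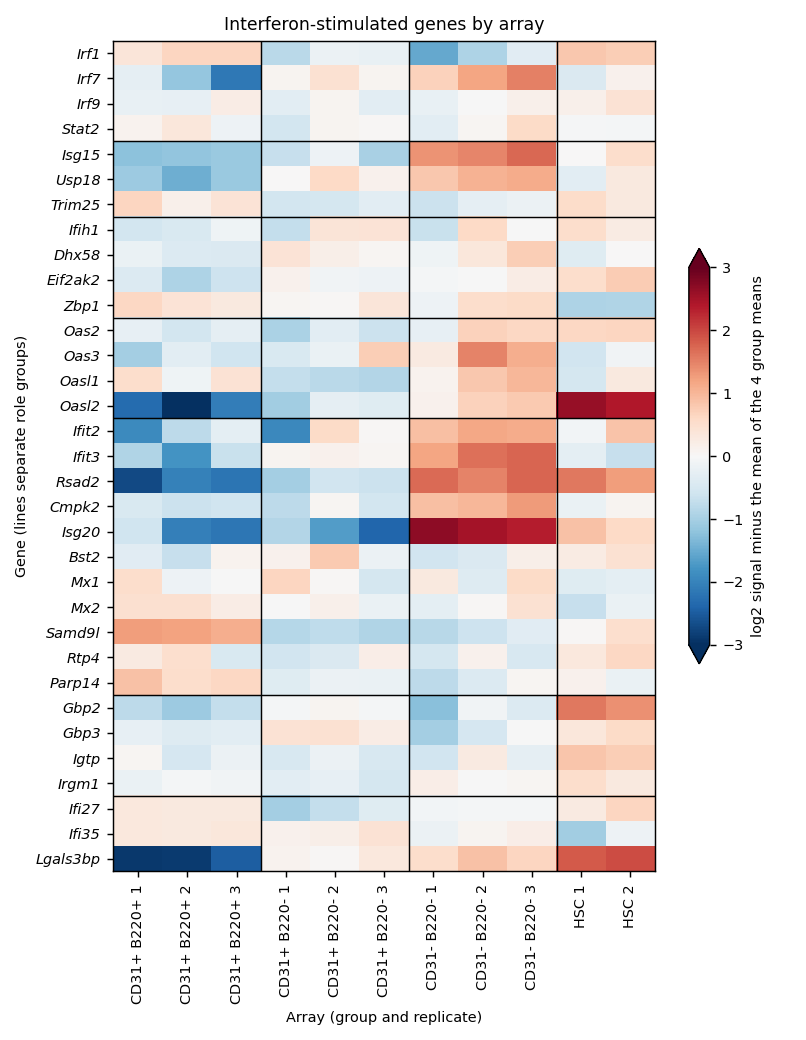
Log2 normalized signal of the 33 tested interferon-stimulated genes (rows, in role groups separated by lines) on the 11 arrays (columns, by group and replicate), coloured by its distance in log2 units from the mean of that gene's 4 group means. Isg20, Rsad2, Isg15 and Ifit3 are red on the 3 CD31- B220- arrays and blue on the 3 CD31+ B220+ arrays, and Oasl2 and Lgals3bp are darkest red on the 2 HSC arrays.

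Each comparison was tested with limma's moderated test over all 11367 genes, with Benjamini-Hochberg adjustment, and a gene counted as called where its adjusted p was under 0.05. In CD31+ B220+ against CD31- B220- cells, 4 of the 33 genes were called higher and 14 lower, against 22.3% and 22.5% of all genes. The median difference of the 33 was -0.28, against 0.02 over all genes. In CD31+ B220- against CD31- B220- cells, 1 gene was called higher and 11 lower, against 16% and 12.1% of all genes, with medians of -0.25 and 0.07. In CD31+ B220+ against CD31+ B220- cells, 6 genes were called higher and 9 lower, against 16.7% and 18.5% of all genes, with medians of 0.04 and 0.01. These 3 comparisons share arrays with one another. Without CD31+ B220- 1, the second of them held 7 calls, 1 higher and 6 lower.

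Against HSC more of the genes were called lower than higher, as over all genes. In CD31+ B220+ cells 5 of the 33 genes were called higher and 12 lower, against 18.4% and 26.9% of all genes, with a median of -0.54 against -0.06 over all genes. In CD31+ B220- cells 2 were called higher and 14 lower, against 17.5% and 25.0%, with medians of -0.68 and -0.09. In CD31- B220- cells 8 were called higher and 9 lower, which was nearly even, against 20.6% and 29.5%, with medians of -0.28 and -0.08. All 3 comparisons use the same 2 HSC arrays. Without HSC 1 the counts were 1 higher and 8 lower in CD31+ B220+ cells, and 5 higher and 6 lower in CD31- B220- cells. Under the common median 0 genes were called higher in any of the 3, while 28, 29 and 22 were called lower, with medians of -1.84, -1.72 and -1.09. Of all genes, 67.9%, 65.5% and 62.3% were then called lower, with medians of -1.22, -1.14 and -1.08. The share of higher among all called genes then fell to 8.93%, 10.6% and 13.1% under the common median, against 40.6%, 41.2% and 41.1% under quantile normalization.

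**Figure D2:**
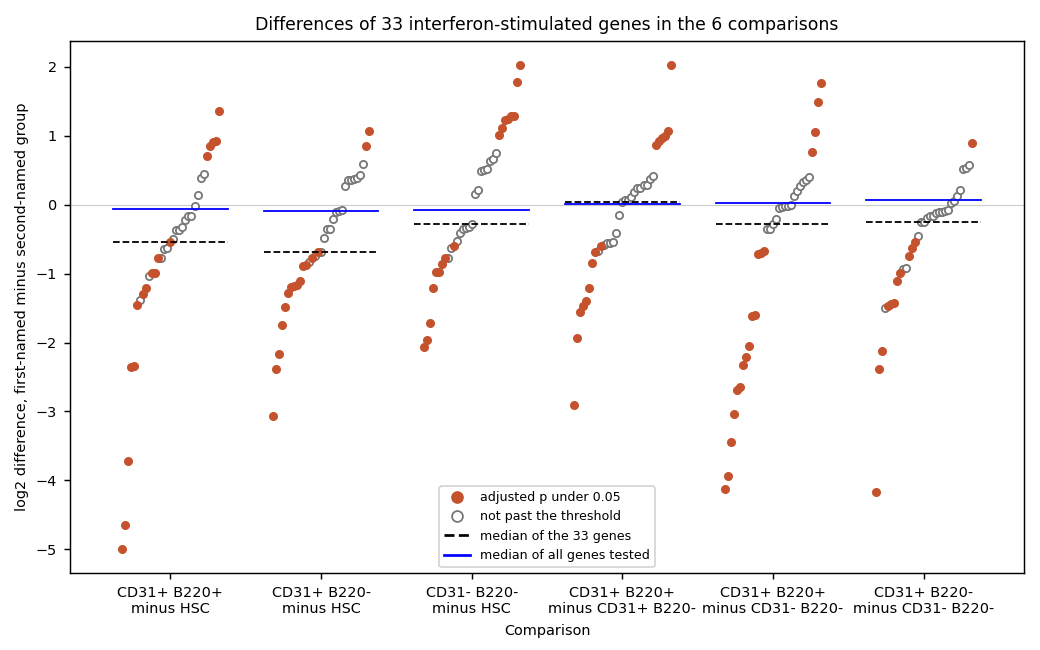
Log2 difference (first-named minus second-named group) of each of the 33 tested interferon-stimulated genes in the 6 comparisons, sorted within each comparison. Filled points have an adjusted p under 0.05, dashed lines mark the median of the 33 genes and solid lines the median of all 11367 tested genes; the dashed line lies below the solid one in all comparisons except CD31+ B220+ minus CD31+ B220-, where the medians are 0.04 and 0.01.

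Among the transcription factors, Irf7 and Irf1 differed between the fractions in opposite directions, and Irf9 and Stat2 passed the test in no comparison. Irf7, which drives the type I interferon genes, had log2 signals of 6.78, 5.90 and 4.92 in CD31+ B220+, 7.14, 7.52 and 7.14 in CD31+ B220- and 7.75, 8.25 and 8.57 in CD31- B220- cells, and 6.63 and 7.18 in HSC. Each CD31- B220- array lay above all others, and the CD31+ B220+ arrays varied most, with 2 of 3 detecting the gene. Irf7 was 5.0-fold lower in CD31+ B220+ than in CD31- B220- cells (log2 difference ± standard error -2.32 ± 0.40, adjusted p = 0.000522), and lower than in CD31+ B220- cells (-1.40 ± 0.40, adjusted p = 0.017). In CD31- B220- cells against HSC it was called higher (1.29 ± 0.44, adjusted p = 0.0313), and under the common median the difference was -0.21, which is 0.87 above the median of all genes. The difference between CD31+ B220- and CD31- B220- cells did not pass (-0.92 ± 0.40, adjusted p = 0.111).

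Irf1, an early factor of the interferon gamma response, had log2 signals of 11.84, 12.13 and 12.13 in CD31+ B220+, 10.68, 11.29 and 11.25 in CD31+ B220- and 9.93, 10.55 and 11.14 in CD31- B220- cells, and 12.30 and 12.23 in HSC. The CD31+ B220+ arrays lay above those of both other fractions, and the CD31- B220- arrays were the most spread. It was 2.82-fold higher in CD31+ B220+ than in CD31- B220- cells (1.495 ± 0.28, adjusted p = 0.00107) and higher than in CD31+ B220- cells (0.96 ± 0.28, adjusted p = 0.0203). Against HSC it was lower in CD31- B220- cells (-1.72 ± 0.32, adjusted p = 0.000835) and in CD31+ B220- cells (-1.19 ± 0.32, adjusted p = 0.0105). Of its other probes, 2 gave differences in CD31+ B220+ cells against HSC of 1.08 and 1.05 (adjusted p = 0.00461 and 0.00153), whereas the probe used here gave -0.23 (adjusted p = 0.594), and in CD31+ B220- cells against HSC they gave 0.275 and 0.041. In CD31- B220- cells against HSC all 5 probes were lower, with differences from -1.72 to -0.475, and 4 of the 5 passed, so that the comparisons of the CD31+ fractions with HSC depend on the probe. In CD31+ B220- against CD31- B220- cells the probe used here gave 0.533 (adjusted p = 0.196). There each other probe passed, with 0.734 to 0.808 (adjusted p = 0.0129 to 0.0426). In CD31+ B220+ against CD31+ B220- cells the probe detected on 5 arrays gave -0.022 (adjusted p = 0.965), and the rest passed as higher.

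Irf9, the DNA-binding subunit of the type I interferon complex, averaged 9.82 ± 0.26 in CD31+ B220+, 9.71 ± 0.23 in CD31+ B220- and 9.87 ± 0.20 in CD31- B220- cells, and 10.18 ± 0.21 in HSC (SD; n = 3, 3, 3 and 2 here and below). Another Irf9 probe differed by 0.96 in CD31- B220- cells against HSC (adjusted p = 0.00843), where the probe used here gave -0.32 ± 0.22, adjusted p = 0.262. Stat2, its partner, averaged 7.21 ± 0.25 in CD31+ B220+, 6.97 ± 0.36 in CD31+ B220- and 7.22 ± 0.45 in CD31- B220- cells, and 7.07 ± 0.02 in HSC. Its groups overlapped in all 6 comparisons. Single arrays decided some calls of this group. The Irf7 call of CD31+ B220+ against CD31+ B220- cells was lost without CD31+ B220+ 3 or CD31+ B220- 2 (adjusted p up to 0.0589), and that of CD31- B220- cells against HSC without CD31- B220- 2 or 3 or HSC 1 or 2 (adjusted p up to 0.205). The Irf1 call of CD31+ B220+ against CD31+ B220- cells was lost without CD31+ B220+ 2 or 3 or CD31+ B220- 1 (adjusted p up to 0.0802), and that of CD31+ B220- cells against HSC without HSC 1 or 2 (adjusted p up to 0.069).

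In the Isg15 system, the modifier Isg15 and its protease Usp18 were highest in CD31- B220- cells, and the ligase Trim25 was not. Isg15, a ubiquitin-like protein that is coupled to other proteins, had log2 signals of 6.89, 6.94 and 7.01 in CD31+ B220+, 7.43, 7.98 and 7.16 in CD31+ B220- and 9.47, 9.60 and 9.85 in CD31- B220- cells, and 8.15 and 8.65 in HSC. All 3 CD31- B220- arrays lay above every other array. Isg15 was 6.48-fold lower in CD31+ B220+ than in CD31- B220- cells (-2.70 ± 0.23, adjusted p = 1.89e-06) and 4.33-fold lower in CD31+ B220- than in CD31- B220- cells (-2.12 ± 0.23, adjusted p = 3.38e-05). Compared with HSC, it was lower in CD31+ B220+ cells (-1.46 ± 0.25, adjusted p = 0.000678) and CD31+ B220- cells (-0.88 ± 0.25, adjusted p = 0.0162) and higher in CD31- B220- cells (1.24 ± 0.25, adjusted p = 0.00174). That last difference was, under the common median, -0.10, or 0.98 above the median of all genes.

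Usp18, which removes Isg15 from proteins and also damps the type I receptor, had log2 signals of 7.44, 7.07 and 7.43 in CD31+ B220+, 8.55, 9.13 and 8.67 in CD31+ B220- and 9.35, 9.58 and 9.64 in CD31- B220- cells, and 8.21 and 8.82 in HSC. The 3 CD31+ B220+ arrays lay below every other array. Usp18 was 4.63-fold lower in CD31+ B220+ than in CD31- B220- cells (-2.21 ± 0.22, adjusted p = 7.64e-06) and 2.77-fold lower than in CD31+ B220- cells (-1.47 ± 0.22, adjusted p = 0.000335). It was also lower in CD31+ B220+ cells relative to HSC (-1.20 ± 0.25, adjusted p = 0.00202). The differences of CD31+ B220- from CD31- B220- cells (-0.74 ± 0.22, adjusted p = 0.0269) and of CD31- B220- cells from HSC (1.01 ± 0.25, adjusted p = 0.00524) were smaller, and under the common median the second was -0.34, or 0.74 above the median of all genes. Another Usp18 probe, detected on 8 arrays, gave -0.346 (adjusted p = 0.475) in CD31+ B220- against CD31- B220- cells. The remaining Usp18 calls also passed with that probe, in the same directions.

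Trim25, a ubiquitin ligase that acts on the RNA sensor encoded by Ddx58, averaged 11.24 ± 0.25 in CD31+ B220+, 10.37 ± 0.13 in CD31+ B220- and 10.48 ± 0.24 in CD31- B220- cells, and 11.26 ± 0.17 in HSC. It was higher in CD31+ B220+ than in CD31+ B220- cells (0.87 ± 0.19, adjusted p = 0.00434) and than in CD31- B220- cells (0.77 ± 0.19, adjusted p = 0.00658), and lower than in HSC in CD31+ B220- cells (-0.88 ± 0.21, adjusted p = 0.0064) and CD31- B220- cells (-0.78 ± 0.21, adjusted p = 0.0101). Its difference between CD31+ B220+ and CD31- B220- cells was 0.58 under the common median and no longer passed (adjusted p = 0.0574). In CD31+ B220+ cells another Trim25 probe, detected on 6 arrays, did not pass against CD31+ B220- cells (0.807, adjusted p = 0.13) or CD31- B220- cells (0.637, adjusted p = 0.208). With that probe CD31+ B220- cells (-1.618, adjusted p = 0.00981) and CD31- B220- cells (-1.448, adjusted p = 0.0142) were lower than HSC. Calls lost by leaving out an array were that of Isg15 in CD31+ B220- cells against HSC, without CD31+ B220- 3 or HSC 2 (adjusted p up to 0.162), and that of Usp18 in CD31- B220- cells against HSC, without HSC 1 (adjusted p up to 0.0813). Usp18 in CD31+ B220- against CD31- B220- cells lost its call without CD31+ B220- 1 or 3 or CD31- B220- 2 or 3 (adjusted p up to 0.0955). Both Trim25 calls against HSC were lost without HSC 1, with adjusted p of 0.0669 in CD31+ B220- cells and 0.0903 in CD31- B220- cells.

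Of the nucleic acid sensors, Eif2ak2 was lower in all 3 fractions than in HSC, and Ifih1 passed nowhere. Zbp1 was called higher than in HSC in all 3 by the probe used here. Eif2ak2, the kinase PKR that stops translation when it meets double-stranded RNA, had log2 signals of 9.04, 8.52 and 8.82 in CD31+ B220+, 9.58, 9.33 and 9.28 in CD31+ B220- and 9.38, 9.44 and 9.66 in CD31- B220- cells, and 9.98 and 10.20 in HSC. Both HSC arrays lay above all arrays of the fractions, and the CD31+ B220+ arrays below those of the other fractions. Its differences from HSC were -1.29 ± 0.21 for CD31+ B220+, -0.69 ± 0.21 for CD31+ B220- and -0.60 ± 0.21 for CD31- B220- cells (adjusted p = 0.000335, 0.018 and 0.0305). CD31+ B220+ cells were also lower than CD31+ B220- cells (-0.60 ± 0.18, adjusted p = 0.024) and CD31- B220- cells (-0.70 ± 0.18, adjusted p = 0.00859).

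Zbp1, a sensor of nucleic acids in the Z form that can start necroptosis, had log2 signals of 7.44, 7.22 and 7.09 in CD31+ B220+, 6.87, 6.84 and 7.17 in CD31+ B220- and 6.65, 7.34 and 7.39 in CD31- B220- cells, and 5.87 and 5.90 in HSC. The HSC arrays lay below all others, and the 3 fractions overlapped. It was 2.57-fold higher in CD31+ B220+ cells relative to HSC (1.36 ± 0.24, adjusted p = 0.000759), and also higher in CD31+ B220- cells (1.07 ± 0.24, adjusted p = 0.00418) and CD31- B220- cells (1.24 ± 0.24, adjusted p = 0.00126). Scaled to a common median, the 3 differences were -0.05, -0.15 and -0.04, which lie 1.17, 0.99 and 1.04 above the median of all genes. Another Zbp1 probe, detected on 2 arrays, passed in none of the 3 comparisons with HSC. It gave 0.169, 0.555 and 0.609 in the same order (adjusted p = 0.714, 0.212 and 0.155).

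Dhx58, the helicase LGP2, averaged 8.14 ± 0.14 in CD31+ B220+, 8.70 ± 0.18 in CD31+ B220- and 8.82 ± 0.44 in CD31- B220- cells, and 8.31 ± 0.27 in HSC. It was lower in CD31+ B220+ than in CD31- B220- cells (-0.68 ± 0.23, adjusted p = 0.0306). Ifih1, the helicase MDA5, was detected on 0 of 3 CD31+ B220+ arrays, 2 of 3 CD31+ B220- arrays, 1 of 3 CD31- B220- arrays and 2 of 2 HSC arrays. The Dhx58 call was lost without CD31+ B220+ 2 or 3 or CD31- B220- 2 or 3 (adjusted p up to 0.109). Eif2ak2 lost its call in CD31+ B220- cells against HSC without CD31+ B220- 3 or HSC 2 (adjusted p up to 0.128), in CD31- B220- cells against HSC without CD31- B220- 1 or 2 or HSC 1 or 2 (adjusted p up to 0.178), and in CD31+ B220+ against CD31+ B220- cells without CD31+ B220+ 2 or CD31+ B220- 1 (adjusted p up to 0.106).

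Oasl2 was the member of the oligoadenylate synthetase family with the largest differences, and it was called in all 6 comparisons. The synthetases of this family make short oligoadenylates that activate RNase L. Oasl2 had log2 signals of 6.22, 5.43 and 6.46 in CD31+ B220+, 7.48, 8.25 and 8.17 in CD31+ B220- and 8.66, 9.22 and 9.32 in CD31- B220- cells, and 11.13 and 10.94 in HSC. The 4 groups did not overlap and ran upward in that order, with 2 of 3 CD31+ B220+ arrays detecting the gene. Relative to HSC it was 32-fold lower in CD31+ B220+ cells (-5.0 ± 0.34, adjusted p = 4.19e-07), 8.41-fold lower in CD31+ B220- cells (-3.07 ± 0.34, adjusted p = 2.95e-05) and 3.92-fold lower in CD31- B220- cells (-1.97 ± 0.34, adjusted p = 0.000502). Its other probes gave smaller differences from HSC. They were -1.796 and -1.096 in CD31+ B220+ (adjusted p = 0.0514 and 0.000731) and -1.818 and -1.084 in CD31+ B220- cells (adjusted p = 0.0543 and 0.000995). In CD31- B220- cells they were -1.587 and -1.048 (adjusted p = 0.0773 and 0.000902), so the folds depend on the probe.

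Between fractions, Oasl2 was 8.17-fold lower in CD31+ B220+ than in CD31- B220- cells (-3.03 ± 0.30, adjusted p = 7.34e-06) and 3.81-fold lower than in CD31+ B220- cells (-1.93 ± 0.30, adjusted p = 0.000449). Its 2 other probes, detected on 6 and 2 arrays, did not pass between fractions: they gave -0.209 and -0.048 (adjusted p = 0.826 and 0.86) in the first of these comparisons and 0.021 and -0.012 (adjusted p = 0.985 and 0.971) in the second. By the probe used here it was lower in CD31+ B220- than in CD31- B220- cells (-1.10 ± 0.30, adjusted p = 0.0174), a call lost without CD31+ B220- 1 or CD31- B220- 2 or 3 (adjusted p up to 0.0695).

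The other family members followed different orders. Oas2 had log2 signals of 7.30, 6.99 and 7.29 in CD31+ B220+, 6.61, 7.23 and 6.90 in CD31+ B220- and 7.30, 8.24 and 8.18 in CD31- B220- cells, and 8.18 and 8.20 in HSC, so that the HSC arrays were close to the 2 higher CD31- B220- arrays. It was lower than in HSC in CD31+ B220+ cells (-0.996 ± 0.29, adjusted p = 0.015) and CD31+ B220- cells (-1.28 ± 0.29, adjusted p = 0.00431), and lower in CD31+ B220- than in CD31- B220- cells (-0.99 ± 0.26, adjusted p = 0.0138). Its difference between CD31+ B220+ and CD31- B220- cells (-0.71 ± 0.26, adjusted p = 0.0423) came with overlapping arrays. Oasl1, which in mice holds back translation of Irf7, averaged 7.34 ± 0.35 in CD31+ B220+, 6.27 ± 0.08 in CD31+ B220- and 7.69 ± 0.47 in CD31- B220- cells, and 6.95 ± 0.57 in HSC. It was higher in CD31+ B220+ than in CD31+ B220- cells (1.07 ± 0.28, adjusted p = 0.0117; 0.77 and adjusted p = 0.0682 under the common median) and lower in CD31+ B220- than in CD31- B220- cells (-1.43 ± 0.28, adjusted p = 0.00274).

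Oas3 had log2 signals of 4.75, 5.44 and 5.16 in CD31+ B220+, 5.30, 5.57 and 6.51 in CD31+ B220- and 6.04, 7.25 and 6.87 in CD31- B220- cells, and 5.20 and 5.67 in HSC, and was detected on 0 of 3 CD31+ B220+ arrays, 2 of 3 CD31+ B220- arrays, 3 of 3 CD31- B220- arrays and 1 of 2 HSC arrays. Against CD31- B220- cells, CD31+ B220+ cells were at least 2.30-fold lower, a bound set by the lowest detected signal of each dim array (adjusted p = 0.00368). It was called higher in CD31- B220- cells relative to HSC (1.29 ± 0.41, adjusted p = 0.0213), a difference of 0.29 under the common median, or 1.37 above the median of all genes. That call was lost without CD31- B220- 2 or 3 or HSC 1 (adjusted p up to 0.157). Oas2 lost its call in CD31+ B220+ cells against HSC without HSC 1 or 2 (adjusted p up to 0.0773), in CD31+ B220- against CD31- B220- cells without CD31+ B220- 1 or CD31- B220- 2 (adjusted p up to 0.0585), and in CD31+ B220+ against CD31- B220- cells when any of 8 arrays was left out, which were all but CD31+ B220- 1 and 2 and CD31- B220- 1 (adjusted p up to 0.152).

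Among the antiviral effectors, Isg20 and Rsad2 were well below CD31- B220- cells in both CD31+ fractions. Isg20, an exonuclease of single-stranded RNA, had log2 signals of 6.37, 4.93 and 4.80 in CD31+ B220+, 6.09, 5.30 and 4.59 in CD31+ B220- and 9.67, 9.48 and 9.33 in CD31- B220- cells, and 7.85 and 7.58 in HSC. The 3 CD31- B220- arrays lay above all others, the HSC arrays came next, and both CD31+ fractions were near the limit of detection, with 1 of 3 CD31+ B220+ and 2 of 3 CD31+ B220- arrays detecting the gene, so the sizes of its differences from them are uncertain. By the fit, Isg20 was 17.4-fold lower in CD31+ B220+ than in CD31- B220- cells (-4.12 ± 0.43, adjusted p = 1.01e-05) and 17.9-fold lower in CD31+ B220- than in CD31- B220- cells (-4.17 ± 0.43, adjusted p = 2.35e-05). Against HSC it was 5.09-fold lower in CD31+ B220+ cells (-2.35 ± 0.48, adjusted p = 0.00188), 5.24-fold lower in CD31+ B220- cells (-2.39 ± 0.48, adjusted p = 0.00199) and 3.42-fold higher in CD31- B220- cells (1.78 ± 0.48, adjusted p = 0.00888). The last of these was, under the common median, 0.42, or 1.501 above the median of all genes, and its call was also lost without HSC 2 (adjusted p up to 0.0669).

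Rsad2, known as viperin, makes a nucleotide that ends viral RNA chains, and had log2 signals of 5.77, 6.46 and 6.30 in CD31+ B220+, 7.45, 7.89 and 7.83 in CD31+ B220- and 10.18, 9.96 and 10.21 in CD31- B220- cells, and 10.05 and 9.74 in HSC. The CD31+ B220+ arrays lay lowest, the CD31+ B220- arrays next, and CD31- B220- and HSC arrays overlapped. It was 15.4-fold lower in CD31+ B220+ than in CD31- B220- cells (-3.94 ± 0.21, adjusted p = 5.28e-08), 5.24-fold lower in CD31+ B220- than in CD31- B220- cells (-2.39 ± 0.21, adjusted p = 8.35e-06) and 2.93-fold lower in CD31+ B220+ than in CD31+ B220- cells (-1.55 ± 0.21, adjusted p = 0.000183). Compared with HSC, it was 13.2-fold lower in CD31+ B220+ cells (-3.72 ± 0.24, adjusted p = 2.95e-07) and 4.50-fold lower in CD31+ B220- cells (-2.17 ± 0.24, adjusted p = 3.15e-05), while CD31- B220- cells differed by 0.22 ± 0.24 (adjusted p = 0.472).

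Cmpk2, a nucleotide kinase of the mitochondrion whose gene neighbours Rsad2, had log2 signals of 8.58, 8.39 and 8.44 in CD31+ B220+, 8.26, 9.10 and 8.49 in CD31+ B220- and 9.93, 10.02 and 10.31 in CD31- B220- cells, and 8.83 and 9.11 in HSC. The CD31- B220- arrays lay above all others and the remaining groups were close together. Cmpk2 was 3.07-fold lower in CD31+ B220+ than in CD31- B220- cells (-1.62 ± 0.22, adjusted p = 9.77e-05) and lower in CD31+ B220- than in CD31- B220- cells (-1.47 ± 0.22, adjusted p = 0.000423). It was higher in CD31- B220- cells relative to HSC (1.12 ± 0.25, adjusted p = 0.00284), against -0.11 under the common median, or 0.97 above the median of all genes. The summed signal of 5 erythroid markers was also highest in this fraction, at 40034 to 48235 in CD31- B220- cells, against 6591 to 14108 in CD31+ B220+ cells, 6848 to 15215 in CD31+ B220- cells and 16236 to 19774 in HSC, and its part in the differences of Isg20, Rsad2 and Cmpk2 was not tested.

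Ifit3, an RNA-binding protein with tetratricopeptide repeats, had log2 signals of 6.61, 5.70 and 6.84 in CD31+ B220+, 7.60, 7.63 and 7.56 in CD31+ B220- and 8.70, 9.17 and 9.24 in CD31- B220- cells, and 7.21 and 6.81 in HSC. The CD31- B220- arrays lay above every other array. Ifit3 was 6.28-fold lower in CD31+ B220+ than in CD31- B220- cells (-2.65 ± 0.28, adjusted p = 1.14e-05), lower in CD31+ B220- than in CD31- B220- cells (-1.44 ± 0.28, adjusted p = 0.00233) and lower in CD31+ B220+ than in CD31+ B220- cells (-1.21 ± 0.28, adjusted p = 0.00541). It was 4.08-fold higher in CD31- B220- cells relative to HSC (2.03 ± 0.31, adjusted p = 0.000227), a difference of 0.64 under the common median, or 1.72 above the median of all genes, which no longer passed. Another Ifit3 probe, detected on 3 arrays, was lower in CD31+ B220+ than in CD31- B220- cells (-0.894, adjusted p = 0.0327). It did not pass in CD31+ B220- against CD31- B220- cells (-0.547, adjusted p = 0.236) or in CD31+ B220+ against CD31+ B220- cells (-0.346, adjusted p = 0.44). In CD31- B220- cells against HSC that probe gave 0.339 (adjusted p = 0.436). Ifit2, of the same family, had log2 signals of 5.69, 6.80 and 7.29 in CD31+ B220+, 5.66, 8.16 and 7.63 in CD31+ B220- and 8.48, 8.74 and 8.70 in CD31- B220- cells, and 7.50 and 8.45 in HSC. Its arrays varied widely in both CD31+ fractions, and its probe passed once, being lower in CD31+ B220+ than in CD31- B220- cells (-2.05 ± 0.58, adjusted p = 0.0129), a call lost without CD31+ B220+ 1 (adjusted p up to 0.0532). A second Ifit2 probe, detected on 11 arrays, was lower in that comparison (-1.695, adjusted p = 0.00333) and also in CD31+ B220+ cells against HSC (-1.96, adjusted p = 0.0028).

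**Figure D3:**
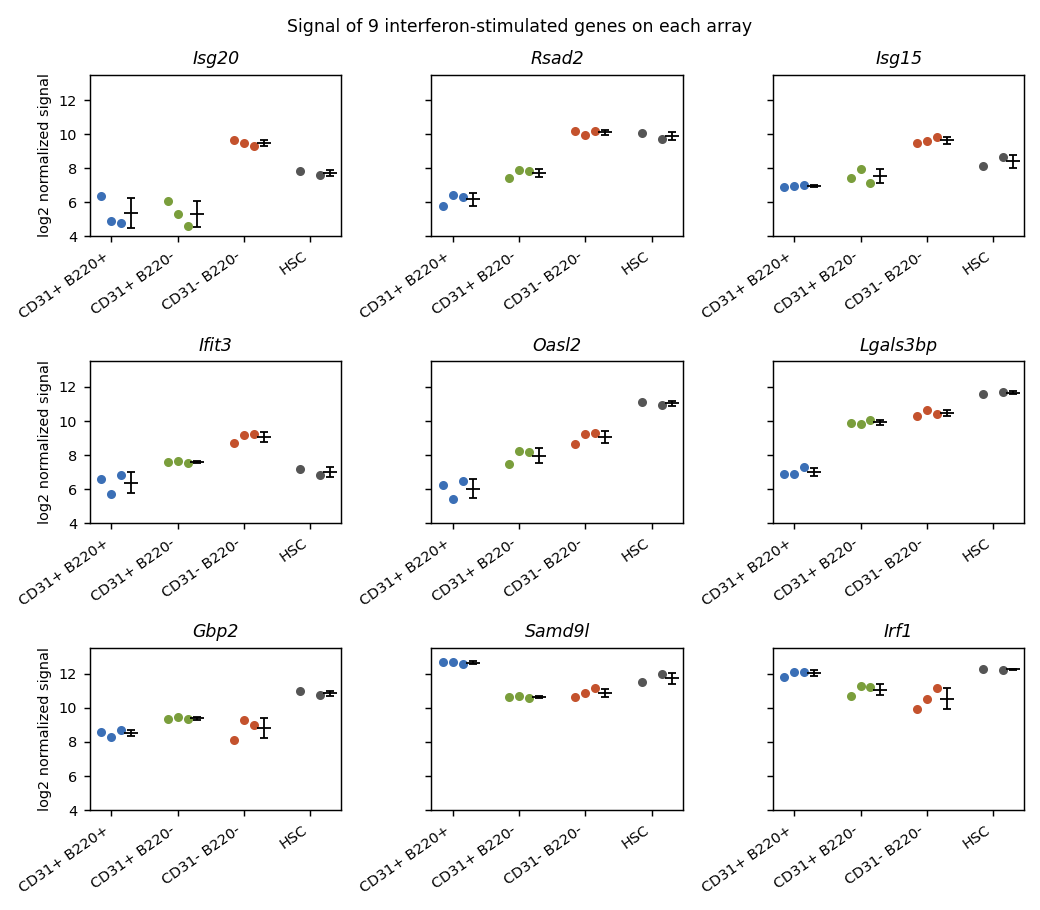
Log2 normalized signal (vertical axis) of 9 interferon-stimulated genes on each of the 11 arrays, by group (points), with the group mean and SD in black beside them (n = 3, 3, 3 and 2). The 3 CD31- B220- arrays lie above all others for Isg20, Isg15 and Ifit3, the 3 CD31+ B220+ arrays lie above all others for Samd9l, and the 4 groups of Oasl2 and Lgals3bp do not overlap, with HSC highest.

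Samd9l and Parp14 had their highest level in CD31+ B220+ cells. Samd9l, an antiviral protein that also restrains growth of blood cells, had log2 signals of 12.72, 12.68 and 12.55 in CD31+ B220+, 10.61, 10.70 and 10.57 in CD31+ B220- and 10.63, 10.86 and 11.14 in CD31- B220- cells, and 11.50 and 11.97 in HSC. All 3 CD31+ B220+ arrays lay above all others. It was 4.07-fold higher in CD31+ B220+ than in CD31+ B220- cells (2.02 ± 0.19, adjusted p = 7.9e-06) and 3.42-fold higher than in CD31- B220- cells (1.77 ± 0.19, adjusted p = 1.09e-05). Relative to HSC it was higher in CD31+ B220+ cells (0.92 ± 0.21, adjusted p = 0.0037) and lower in CD31+ B220- cells (-1.11 ± 0.21, adjusted p = 0.00129) and CD31- B220- cells (-0.86 ± 0.21, adjusted p = 0.00481). The first of these was, under the common median, 0.004, or 1.22 above the median of all genes. Samd9l lost its call in CD31+ B220+ cells against HSC without HSC 1 (adjusted p up to 0.0576), and in CD31- B220- cells against HSC without HSC 2 (adjusted p up to 0.0694).

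Parp14, an ADP-ribosyltransferase, averaged 10.85 ± 0.19 in CD31+ B220+, 9.93 ± 0.11 in CD31+ B220- and 9.80 ± 0.42 in CD31- B220- cells, and 10.15 ± 0.22 in HSC. It was higher in CD31+ B220+ than in CD31- B220- cells (1.05 ± 0.22, adjusted p = 0.002) and than in CD31+ B220- cells (0.92 ± 0.22, adjusted p = 0.00657). Its higher call in CD31+ B220+ cells against HSC (0.71 ± 0.24, adjusted p = 0.0343) became -0.58 under the common median, or 0.64 above the median of all genes. It was lost without CD31+ B220+ 1 or 3 or HSC 1 or 2 (adjusted p up to 0.214), and another Parp14 probe, detected on 11 arrays, gave -0.014 there. That probe gave 0.24 (adjusted p = 0.621) in CD31+ B220+ against CD31- B220- cells and 1.015 (adjusted p = 0.0375) in CD31+ B220+ against CD31+ B220- cells. The B lineage sum was highest in the same fraction as Samd9l and Parp14, and its part in their levels was not tested.

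Mx2, a dynamin-like GTPase, averaged 7.14 ± 0.15 in CD31+ B220+, 6.72 ± 0.18 in CD31+ B220- and 6.80 ± 0.38 in CD31- B220- cells, and 6.29 ± 0.35 in HSC. It was called once, higher in CD31+ B220+ cells relative to HSC (0.85 ± 0.25, adjusted p = 0.0156). With the common median that difference was -0.67, or 0.55 above the median of all genes, and the call was lost without HSC 1 (adjusted p up to 0.164). Mx1, whose gene carries a deletion in C57BL/6 mice, was detected on 4 of the 11 arrays and passed nowhere. Rtp4, a chaperone of receptors, was detected on 4 arrays and passed nowhere. Bst2, the protein tetherin that holds budding virus at the membrane, averaged 7.80 ± 0.40 in CD31+ B220+, 8.34 ± 0.49 in CD31+ B220- and 7.82 ± 0.40 in CD31- B220- cells, and 8.44 ± 0.15 in HSC. It passed nowhere. For Bst2 the widest difference, -0.64 ± 0.33 in CD31+ B220+ cells against HSC, had a 95% interval from -1.37 to 0.08.

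The interferon-inducible GTPases, which attack the vacuoles of intracellular microbes, were highest in HSC. By the probes used here, all 4 tested members were called lower than in HSC in CD31+ B220+ cells, and 3 of 4 in each other fraction. Of all genes, 26.9% were called lower in CD31+ B220+, 25.0% in CD31+ B220- and 29.5% in CD31- B220- cells. Other probes of Gbp3 and Irgm1 did not pass in CD31+ B220+ cells. Gbp2, a guanylate-binding protein, had log2 signals of 8.60, 8.31 and 8.68 in CD31+ B220+, 9.34, 9.47 and 9.33 in CD31+ B220- and 8.14, 9.28 and 8.99 in CD31- B220- cells, and 10.97 and 10.75 in HSC. Both HSC arrays lay more than 1 log2 unit above every array of the fractions. Gbp2 was 5.04-fold lower in CD31+ B220+ cells (-2.33 ± 0.29, adjusted p = 5.22e-05), 2.79-fold lower in CD31+ B220- cells (-1.48 ± 0.29, adjusted p = 0.00174) and 4.17-fold lower in CD31- B220- cells (-2.06 ± 0.29, adjusted p = 0.000124). It was also lower in CD31+ B220+ than in CD31+ B220- cells (-0.85 ± 0.26, adjusted p = 0.024). Another Gbp2 probe, detected on 3 arrays, gave -0.05 there (adjusted p = 0.929). Its differences from HSC were -0.89 in CD31+ B220+, -0.84 in CD31+ B220- and -0.982 in CD31- B220- cells (adjusted p = 0.0457, 0.0631 and 0.0284). The folds of Gbp2 thus depend on the probe.

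Gbp3, of the same family, averaged 8.97 ± 0.06 in CD31+ B220+, 9.66 ± 0.13 in CD31+ B220- and 8.77 ± 0.50 in CD31- B220- cells, and 9.74 ± 0.17 in HSC. It was lower than in HSC in CD31+ B220+ cells (-0.77 ± 0.26, adjusted p = 0.0281) and CD31- B220- cells (-0.97 ± 0.26, adjusted p = 0.00796), with -0.08 ± 0.26, adjusted p = 0.826 in CD31+ B220- cells. Between fractions it was lower in CD31+ B220+ than in CD31+ B220- cells (-0.69 ± 0.23, adjusted p = 0.0347) and higher in CD31+ B220- than in CD31- B220- cells (0.89 ± 0.23, adjusted p = 0.0126). The last of these also passed with the second Gbp3 probe (0.766, adjusted p = 0.044), whereas the other Gbp3 calls rested on the probe used here. With the probe of the highest normalized mean, Gbp3 gave -0.13 in CD31+ B220+ cells and -0.59 in CD31- B220- cells against HSC, and -0.31 in CD31+ B220+ against CD31+ B220- cells, none of which passed (adjusted p = 0.717, 0.0863 and 0.357). Gbp2 lost its call in CD31+ B220+ against CD31+ B220- cells without CD31+ B220+ 2 or CD31+ B220- 1, 2 or 3 (adjusted p up to 0.087). Gbp3 lost its call in the same comparison without CD31+ B220+ 1, 2 or 3 or CD31+ B220- 1 or 2 (adjusted p up to 0.0935), in CD31+ B220+ cells against HSC without CD31+ B220+ 2 or 3 or HSC 1 or 2 (adjusted p up to 0.168), and in CD31- B220- cells against HSC without HSC 2 (adjusted p up to 0.0703).

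Igtp, an immunity-related GTPase, had log2 signals of 9.31, 8.75 and 9.07 in CD31+ B220+, 8.76, 9.06 and 8.76 in CD31+ B220- and 8.68, 9.51 and 8.97 in CD31- B220- cells, and 10.08 and 9.99 in HSC. The HSC arrays lay above all others and the fractions overlapped, with differences from HSC of -0.99 ± 0.26 for CD31+ B220+, -1.18 ± 0.26 for CD31+ B220- and -0.98 ± 0.26 for CD31- B220- cells (adjusted p = 0.00828, 0.00352 and 0.00771). Irgm1, of the same family and needed to maintain blood stem cells in mice, averaged 12.53 ± 0.07 in CD31+ B220+, 12.28 ± 0.15 in CD31+ B220- and 12.73 ± 0.11 in CD31- B220- cells, and 13.06 ± 0.16 in HSC. It was lower than in HSC in CD31+ B220+ cells (-0.54 ± 0.18, adjusted p = 0.0264) and CD31+ B220- cells (-0.78 ± 0.18, adjusted p = 0.0042), with -0.33 ± 0.18, adjusted p = 0.141 in CD31- B220- cells. Other Irgm1 probes, detected on 11 and 3 arrays, gave -0.197 and -0.047 in CD31+ B220+ cells against HSC (adjusted p = 0.508 and 0.91). In CD31+ B220- cells against HSC they gave -1.002 and -0.535 (adjusted p = 0.00399 and 0.155). The first of them was higher in CD31+ B220+ than in CD31+ B220- cells (0.804, adjusted p = 0.00876), where the probe used here gave 0.242 (adjusted p = 0.27). Igtp lost its call in CD31+ B220+ cells without HSC 1 (adjusted p up to 0.0601) and in CD31- B220- cells without HSC 1 (adjusted p up to 0.0561), and Irgm1 in CD31+ B220+ cells without CD31+ B220+ 1 or 3 or HSC 1 (adjusted p up to 0.179). Set against the median of all genes under the common median, the differences in CD31+ B220+, CD31+ B220- and CD31- B220- cells were -2.50, -1.54 and -2.17 for Gbp2 and -1.22, -1.36 and -1.17 for Igtp. They were -1.03, -0.23 and -1.21 for Gbp3, and -0.07, -0.20 and 0.33 for Irgm1, which thus lay close to that median in both CD31+ fractions and above it in CD31- B220- cells.

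Lgals3bp, a secreted glycoprotein that binds galectins, was called in all 6 comparisons and had log2 signals of 6.86, 6.91 and 7.29 in CD31+ B220+, 9.89, 9.81 and 10.08 in CD31+ B220- and 10.31, 10.66 and 10.42 in CD31- B220- cells, and 11.60 and 11.73 in HSC. The 4 groups did not overlap, and the widest gap lay between CD31+ B220+ cells and the other groups. It was 25.1-fold lower in CD31+ B220+ cells relative to HSC (-4.65 ± 0.20, adjusted p = 1.16e-08), 10.9-fold lower than in CD31- B220- cells (-3.44 ± 0.18, adjusted p = 3.63e-08) and 7.50-fold lower than in CD31+ B220- cells (-2.91 ± 0.18, adjusted p = 3.15e-07). CD31+ B220- cells were 3.34-fold lower than HSC (-1.74 ± 0.20, adjusted p = 4.02e-05), and CD31- B220- cells also lower than HSC (-1.21 ± 0.20, adjusted p = 0.000387). The difference of CD31+ B220- from CD31- B220- cells (-0.53 ± 0.18, adjusted p = 0.0433) was lost without any of 9 arrays, which were all but CD31+ B220+ 1 and 3 (adjusted p up to 0.149).

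Ifi27, a small membrane protein, was lowest in CD31+ B220- cells, with log2 signals of 11.40, 11.36 and 11.37 in CD31+ B220+, 10.07, 10.36 and 10.72 in CD31+ B220- and 10.99, 11.02 and 11.02 in CD31- B220- cells, and 11.36 and 11.72 in HSC. It was higher in CD31+ B220+ than in CD31+ B220- cells (0.997 ± 0.19, adjusted p = 0.00161), lower in CD31+ B220- than in CD31- B220- cells (-0.63 ± 0.19, adjusted p = 0.0266) and lower in CD31+ B220- cells relative to HSC (-1.16 ± 0.21, adjusted p = 0.00104). Another Ifi27 probe, detected on 11 arrays, passed in the first and last of these (0.914 and -1.199, adjusted p = 0.00425 and 0.0013). In CD31+ B220- against CD31- B220- cells that probe gave -0.428 (adjusted p = 0.155). In CD31- B220- cells against HSC it was lower (-0.771, adjusted p = 0.0138), where the probe used here gave -0.531 (adjusted p = 0.0544). Ifi35 averaged 8.68 ± 0.02 in CD31+ B220+, 8.61 ± 0.17 in CD31+ B220- and 8.41 ± 0.20 in CD31- B220- cells, and 7.76 ± 0.63 in HSC, and its HSC arrays, at 7.32 and 8.21, differed from each other by more than the fractions did. Ifi35 was called higher than in HSC in CD31+ B220+ cells (0.92 ± 0.25, adjusted p = 0.011) and CD31+ B220- cells (0.85 ± 0.25, adjusted p = 0.0176). With the common median these differences were -0.73, then called lower (adjusted p = 0.0473), and -0.67, which lie 0.49 and 0.47 above the median of all genes. Ifi35 lost its call in CD31+ B220+ cells without HSC 1 (adjusted p up to 0.164) and in CD31+ B220- cells without CD31+ B220- 3 or HSC 1 (adjusted p up to 0.246). Ifi27 lost its call in CD31+ B220- against CD31- B220- cells without CD31+ B220- 1 or 2 or CD31- B220- 1 or 2 (adjusted p up to 0.101).

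**Figure D4:**
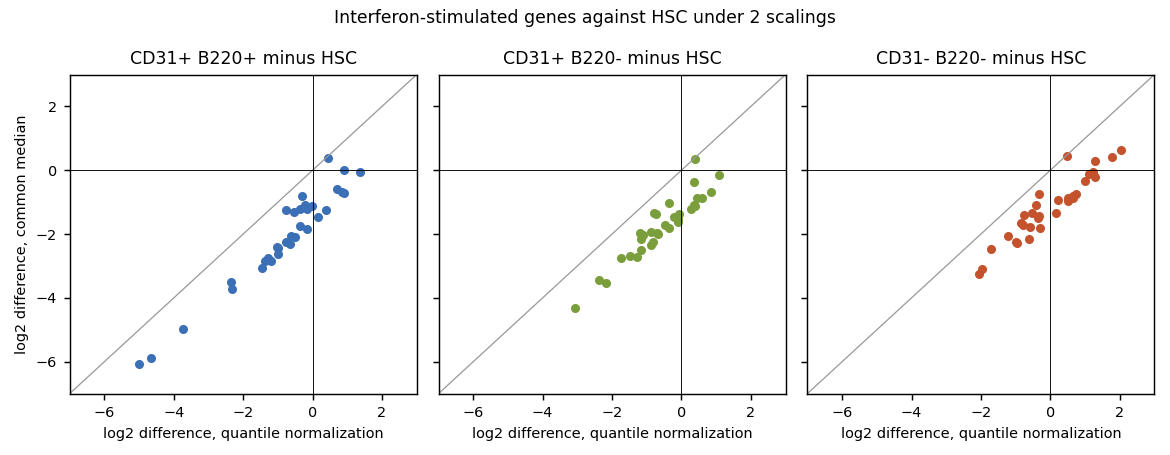
Log2 difference from HSC of the 33 tested interferon-stimulated genes under quantile normalization (horizontal axis) and under scaling to a common median (vertical axis), in CD31+ B220+, CD31+ B220- and CD31- B220- cells. Points lie below the grey line of equal values, and 0 genes are called higher than in HSC under the common median, where the median of all tested genes lay at -1.22, -1.14 and -1.08.

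The genes that make and receive interferon were read from fixed lists. Of 20 ligands, 19 had a probe and 7 were tested. Ifng, which encodes interferon gamma, was called in 4 comparisons and Ifnab in 1, and the other 5 tested ligands in none. Ifnb1 was detected on no array. Ifng had log2 signals of 6.25, 6.38 and 6.03 in CD31+ B220+, 5.31, 5.90 and 5.88 in CD31+ B220- and 4.70, 4.65 and 5.43 in CD31- B220- cells, and 4.58 and 4.53 in HSC, and was detected on 3 of 3 CD31+ B220+ arrays, 2 of 3 CD31+ B220- arrays, 1 of 3 CD31- B220- arrays and 0 of 2 HSC arrays. It was at least 1.93-fold higher in CD31+ B220+ cells relative to HSC (adjusted p = 0.000404) and higher than in CD31- B220- cells (1.29 ± 0.24, adjusted p = 0.001).

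Of the 6 receptor genes, 4 were tested, and Ifnar1 and Ifnlr1 were detected on no array. Ifngr1, which binds interferon gamma, had log2 signals of 9.003, 8.69 and 8.60 in CD31+ B220+, 10.43, 10.48 and 10.45 in CD31+ B220- and 9.54, 9.76 and 10.53 in CD31- B220- cells, and 9.76 and 9.52 in HSC. The CD31+ B220+ arrays lay lowest, below both other fractions (-1.69 ± 0.24, adjusted p = 0.000235 against CD31+ B220- cells, and -1.18 ± 0.24, adjusted p = 0.00182 against CD31- B220- cells). Ifngr2, its partner, was higher in CD31+ B220+ than in CD31- B220- cells (0.87 ± 0.28, adjusted p = 0.0232). Ifnar2 averaged 7.77 ± 0.37 in CD31+ B220+, 8.69 ± 0.76 in CD31+ B220- and 8.70 ± 0.66 in CD31- B220- cells, and 7.76 ± 0.16 in HSC and was called in no comparison. Of the signalling genes, Stat3 was lower than in HSC in all 3 fractions (-1.24 ± 0.30, -1.09 ± 0.30 and -1.91 ± 0.30 in CD31+ B220+, CD31+ B220- and CD31- B220- cells, adjusted p = 0.00559, 0.0123 and 0.000273).

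All 8 inhibitors of the pathway were tested. Ptpn6, the phosphatase SHP-1, averaged 13.30 ± 0.25 in CD31+ B220+, 12.31 ± 0.13 in CD31+ B220- and 11.39 ± 0.39 in CD31- B220- cells, and 11.50 ± 0.15 in HSC, and it was 3.75-fold higher in CD31+ B220+ than in CD31- B220- cells (1.91 ± 0.22, adjusted p = 2.18e-05) and 1.99-fold higher than in CD31+ B220- cells (0.99 ± 0.22, adjusted p = 0.00416). In CD31+ B220+ against CD31- B220- cells 3 of the 8 inhibitors were called higher and 0 lower, against 22.3% and 22.5% of all genes, with Ptpn2 at 1.13 ± 0.28 and Pias1 at 0.47 ± 0.15 (adjusted p = 0.00616 and 0.0254). Socs1 passed in no comparison.

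Of 19 listed names of genes that sense nucleic acids and induce interferon, 15 had a probe and 14 were tested. Cgas, which senses DNA in the cytosol, had log2 signals of 5.61, 5.57 and 5.99 in CD31+ B220+, 10.58, 10.47 and 10.51 in CD31+ B220- and 9.37, 9.58 and 9.48 in CD31- B220- cells, and 10.45 and 10.25 in HSC. The CD31+ B220+ arrays lay far below all others, and 2 of the 3 detected it. Cgas was 27.7-fold lower in CD31+ B220+ than in CD31+ B220- cells (-4.79 ± 0.17, adjusted p = 1.08e-08), 13.4-fold lower than in CD31- B220- cells (-3.75 ± 0.17, adjusted p = 1.27e-08) and 24.7-fold lower than in HSC (-4.63 ± 0.19, adjusted p = 8.77e-09). Ddx58, the RNA sensor RIG-I, went the other way, 3.11-fold higher in CD31+ B220+ than in CD31+ B220- cells (1.64 ± 0.21, adjusted p = 8.66e-05) and 3.06-fold higher than in CD31- B220- cells (1.61 ± 0.21, adjusted p = 5.48e-05).

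Tlr7, an endosomal receptor of single-stranded RNA, was detected on each of the 9 fraction arrays and on 0 of 2 HSC arrays. Against HSC it was at least 3.76-fold higher in CD31+ B220+ cells, at least 8.35-fold higher in CD31+ B220- cells and at least 12.4-fold higher in CD31- B220- cells (adjusted p = 1.48e-05, 1.48e-06 and 3.14e-07). Between fractions it was lower in CD31+ B220+ than in CD31- B220- cells (-1.72 ± 0.25, adjusted p = 0.00015), in the same direction as Irf7. Of the 14 tested induction genes, 5 were called higher and 4 lower in that comparison, against 22.3% and 22.5% of all genes. Irf5 and Irf8, factors of interferon induction in myeloid and B cells, averaged 10.81 ± 0.19 and 10.77 ± 0.21 in CD31+ B220+ cells, 11.17 ± 0.05 and 10.32 ± 0.26 in CD31+ B220- cells, and 10.59 ± 0.58 and 8.93 ± 0.50 in CD31- B220- cells, against 7.63 ± 0.07 and 6.91 ± 0.04 in HSC.

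Within groups, the list did not move evenly from array to array. In CD31- B220- cells, 4 of the 33 genes lay above their group mean on array 1, 21 on array 2 and 28 on array 3, with median deviations of -0.304, 0.022 and 0.205, while the medians over all genes were within 0.016 of 0. Array 1 of that group thus held the lowest levels of most members and array 3 the highest. In the other groups the count ranged from 9 to 22 of 33. Across probes, 15 of the tested genes had more than 1 detected probe, which gave 126 pairs of a second probe and a comparison. The second probe had the opposite sign in 20 of them, in 0 of which both probes were called. Pairs of opposite sign in which a single probe was called were those of Irf1, Irf9, Oasl2 and Parp14. Both probes were called in 31 of the 126 pairs.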

How the data were processed

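Gene expression of 11 sorted mouse samples was measured on bead arrays. The authors deposited, per the file headers, a non-normalized mean bead intensity for each probe and array. Beside it they deposited a fraction headed as a detection p-value, which rose with the signal (Spearman at least 0.9868), so it was read as 1 minus that p-value. The deposited processed values, used as an alternative, match a log2 scale, and no source used here gives their base. Per the submitters' processing notes lumi 1.1.0 was among the tools, with no role stated.

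Intensities were background-corrected, quantile-normalized and logged to base 2 after an offset of 16 was added (neqc of limma 3.58.1, in R 4.3.3; files read with data.table, version 1.17.8). Of 45281 probes, 34885 carried 1 gene symbol; 10396 with several or none were left out. The probe with the highest mean intensity stood for a gene, which was tested if detected at p under 0.05 on at least 2 arrays. All 11 arrays entered 1 limma fit with a mean per group; 6 contrasts were tested with the moderated test, 2-sided, with Benjamini-Hochberg adjustment over 11367 genes. The procedure was tested on simulated data. Alternatives were the background correction, the scaling, the deposited values, the filter, the offset, the probe, the arrays in the fit, the replicate block and each array left out. Levels of different probes were not compared, and precision is limited by how few arrays there are.

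By rule, the genes named are all listed members, in role groups, and members of fixed lists of interferon pathway genes and cell type markers. The members, lists and tests were chosen with earlier results of these data known. Columns of per-sample values left unused numbered 0.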

Additional observations from a re-analysis of the deposited data

How the results depend on the processing

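Of 95 calls of single genes in the 6 comparisons, 60 stayed past the threshold with each array left out in turn, and 52 under all alternatives, which were the 11 left-out arrays and 11 other settings. Scaling to a common median moved the number of genes called in CD31+ B220+ cells against HSC to 28 (17 under quantile normalization) and in CD31+ B220- cells against HSC to 29 (16), and reversed 11 differences from HSC. In CD31+ B220+ cells these were Zbp1 at -0.049, Mx2 at -0.673, Parp14 at -0.584 and Ifi35 at -0.726. In CD31+ B220- cells they were Zbp1 at -0.147 and Ifi35 at -0.67. In CD31- B220- cells they were Irf7 at -0.21, Isg15 at -0.099, Usp18 at -0.336, Zbp1 at -0.042 and Cmpk2 at -0.108. This scaling shifts the median of all genes against HSC by -1.08 to -1.22, and these 11 differences lay 0.47 to 1.17 above that median. Between CD31+ B220+ and CD31+ B220- cells the share of higher among all called genes was 36.3% under the common median, against 47.4% under quantile normalization.

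With 1 array left out, the counts of called genes ranged from 9 to 18, 13 to 17 and 11 to 20 in CD31+ B220+, CD31+ B220- and CD31- B220- cells against HSC. They ranged from 11 to 16 in CD31+ B220+ against CD31+ B220- cells, 16 to 19 in CD31+ B220+ against CD31- B220- cells and 7 to 13 in CD31+ B220- against CD31- B220- cells. The counts of 9 and 11 came without HSC 1, and the count of 7 without CD31+ B220- 1. The deviations of same-numbered arrays correlated between -0.075 and 0.182. Differently numbered arrays were not set beside them, so these values cannot show whether replicate numbers pair the samples. With the replicate number as a block the 6 counts were 16, 16, 18, 15, 18 and 13, and 3 of the 95 calls were lost, with their directions kept. The deposited values gave 16, 16, 15, 14, 17 and 10 calls. A pair of HSC arrays and detection near the limit for Isg20, Oas3, Irf7 and Oasl2 in CD31+ B220+ cells bound what these values can show.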
